A study of Mus musculus with 20 samples.

Results

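The 8 troponin genes of the mouse, Tnni1, Tnni2, Tnni3, Tnnt1, Tnnt2, Tnnt3, Tnnc1 and Tnnc2, were followed through chondrogenic culture of ATDC5 clones with and without the catalytic domain of Kmt2d. They were selected by gene symbol from a table of 27911 genes, with no threshold on any value, and the family was proposed with results of these data in view. Their levels and fits are therefore given as a description, and an adjusted p places a gene among all genes of the same fit. All 8 were in the table and 6 of them passed the filter on low counts. Tnni1 and Tnni3 did not pass it and are given by their values alone.

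ATDC5 is a mouse chondrogenic cell line that forms cartilage-like cells under insulin. Kmt2d, a histone H3 lysine 4 methyltransferase, lacked its catalytic SET domain on both alleles in Kmt2d-/- clones, and Kmt2d+/+ clones of the same line carried the intact gene. The Kmt2d-/- group held 2 clones (1 and 2, named 10-7 and 96-9 in the labels) and the Kmt2d+/+ group held 3 (1, 2 and 3, named 10-5, 10-7 and 10-8). Every clone was a separate clonal cell line, harvested after 7 days in medium with insulin, transferrin, selenium, ascorbic acid and beta-glycerophosphate (day 7) and before differentiation, in standard medium (day 0). The 10 polyadenylated RNA libraries were each run on 2 flow cells, and the runs were summed. With 2 and 3 clones, genotypes are compared against the spread between few clonal lines. In these bulk libraries fewer cells of a type and less RNA per cell cannot be told apart either.

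The troponin complex sits on the thin filament of striated muscle and makes contraction depend on calcium. Troponin C binds calcium, troponin I inhibits the actin-myosin interaction, and troponin T anchors the complex to tropomyosin. Tnni2, Tnnt3 and Tnnc2 encode the fast skeletal forms, Tnni1 and Tnnt1 the slow skeletal forms, Tnni3 and Tnnt2 the cardiac forms, and Tnnc1 the form shared by slow skeletal and cardiac muscle. Troponin I has also been found in human cartilage, where it is known as an inhibitor of blood vessel growth.

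Depth ranged from 35792709 to 66237183 counts per library. A level is given as CPM, the count of a gene relative to its library's total after edgeR's TMM scaling, and a floor of 3 counts in a library corresponds to 0.0409 to 0.0859 CPM. A gene with 0 counts in a library may therefore lie up to that floor, and intervals and floors cover counting error only. Kmt2d itself had 113 to 205 CPM in Kmt2d-/- libraries and 173 to 211 CPM in Kmt2d+/+ libraries, but a count over the whole gene does not check a deletion of the SET domain. Col2a1, which encodes the main collagen of cartilage, had 20470 and 24450 CPM in Kmt2d-/- clones 1 and 2 at day 7, against 332, 126 and 253 CPM in Kmt2d+/+ clones 1, 2 and 3.

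At day 7 Tnni2 and Tnnt3, the fast skeletal inhibitory and tropomyosin-binding subunits, had higher levels in both Kmt2d-/- clones than in any Kmt2d+/+ clone. Tnnc1, the slow and cardiac calcium-binding subunit, and Tnnt2, the cardiac tropomyosin-binding subunit, had lower levels in both Kmt2d-/- clones than in any Kmt2d+/+ clone. None of these differences passed the threshold of an adjusted p under 0.05 in the edgeR quasi-likelihood fit. Between the days, Tnni2 and Tnnt3 rose in both genotypes and Tnnc1 rose in Kmt2d+/+ clones. Tnni2, Tnnt3 and Tnnt1 had 0 to 4 counts in every library of day 0 and passed the filter through their day 7 libraries. Their day results, called or not, follow in part from that filter and are given as a description.

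In the genotype comparison at day 7, 0 of the 6 fitted troponin genes passed in edgeR, against a background of 0.905% of all 15467 tested genes called higher and 0.97% called lower in Kmt2d-/-. At an unadjusted p under 0.05 there were 4 (Tnni2, Tnnt3, Tnnc1 and Tnnt2), beside 19.9% of all genes. DESeq2 called 3 (Tnni2 and Tnnt3 higher, Tnnc1 lower), beside 10.4% of all genes, and limma-voom called 2 (Tnni2 and Tnnt3), beside 3.45%. In the genotype comparison at day 0, 0 of 6 passed in edgeR, where 1.17% of all genes were called higher and 0.976% lower. At an unadjusted p under 0.05 there was 1 (Tnnt2), a share no higher than the 20.2% of all genes, and DESeq2 and limma-voom called 0, beside 10.6% and 1.72% of all genes.

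For day 7 against day 0 in Kmt2d-/- clones, 2 of the 6 passed as higher (Tnni2 and Tnnt3) and 0 as lower, beside 0.672% and 0.595% of all genes. In Kmt2d+/+ clones 3 of the 6 passed as higher (Tnni2, Tnnt3 and Tnnc1) and 0 as lower, beside 3.05% and 2.04% of all genes. At an unadjusted p under 0.05 there were 3 members in Kmt2d-/- clones, beside 14.8% of all genes, and 5 in Kmt2d+/+ clones, beside 24.7%. DESeq2 called 2 in Kmt2d-/- clones and 4 in Kmt2d+/+ clones, beside 6.46% and 14.7% of all genes, and limma-voom called 2 in each, beside 1.16% and 5.08%. The family was chosen with these results known, so nothing is read from the counts. The difference between the day effects of the genotypes was called for 0 of the 6 and for 0% of all genes by edgeR in either direction. At an unadjusted p under 0.05 it held 2 members (Tnnc1 and Tnnt3) among 568 genes (3.67%), and DESeq2 called 27 genes (0.175%) and limma-voom 0, with no troponin gene among them. Both day comparisons share their libraries with the genotype comparisons.

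**Figure D1:**
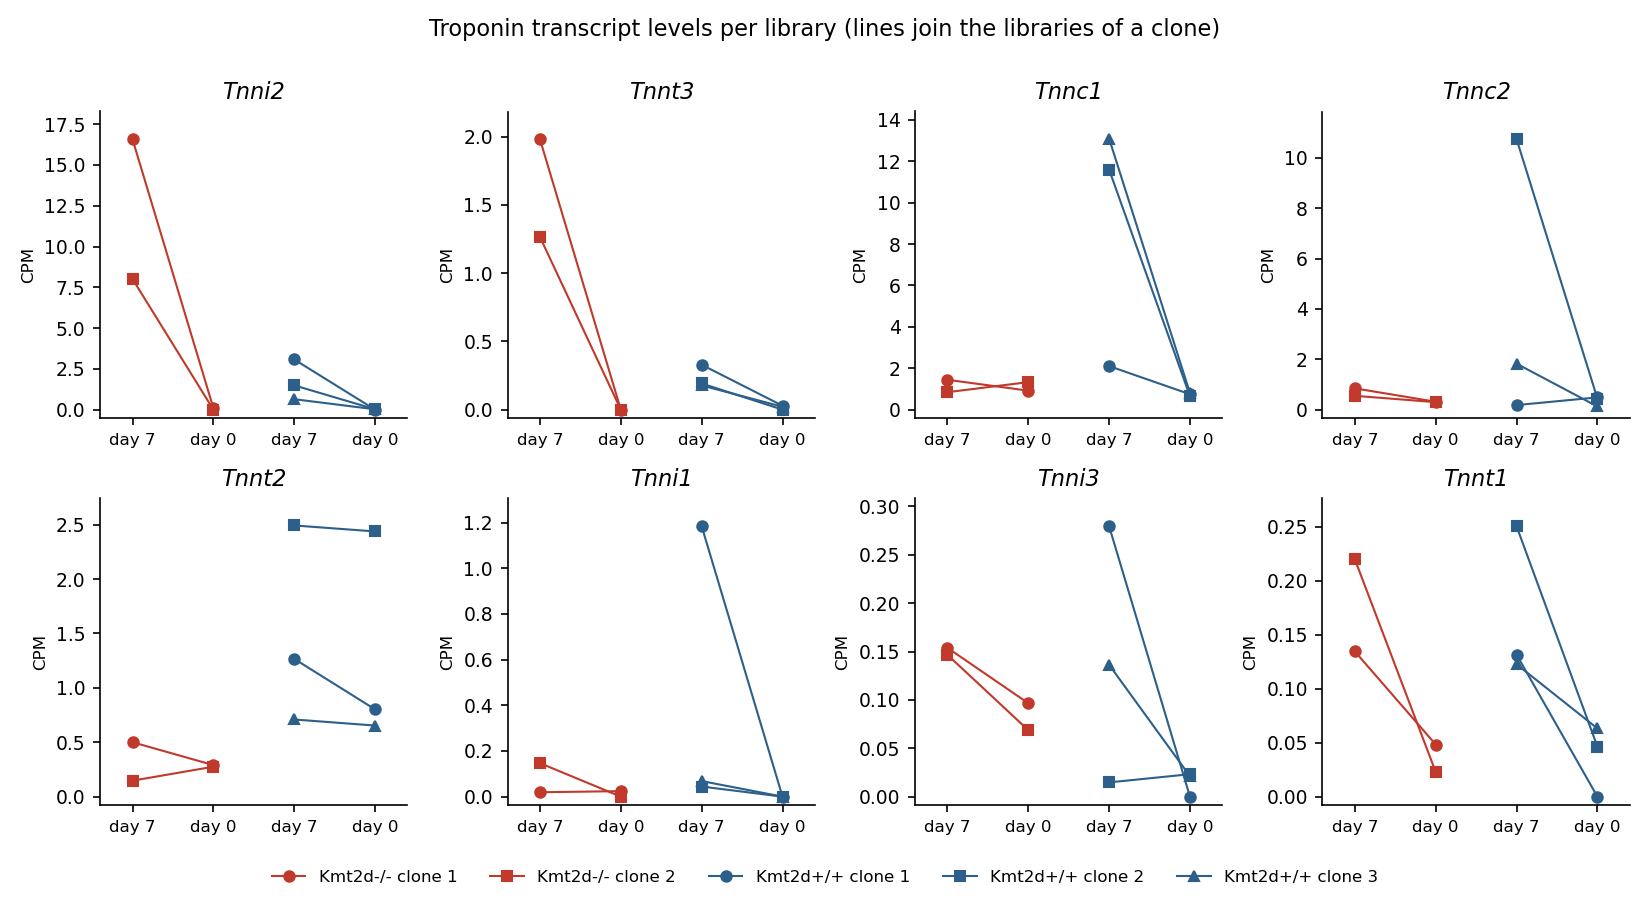
Level of each of the 8 troponin genes in CPM, with a point per clone and lines joining the libraries of a clone; Kmt2d-/- clones are on the left of each panel, with day 7 left of day 0. At day 7 the Kmt2d-/- points lie above all Kmt2d+/+ points for Tnni2 and Tnnt3 and below all of them for Tnnc1 and Tnnt2, whereas for Tnnc2 and Tnni1 a single Kmt2d+/+ clone stands far above the rest.

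Among the inhibitory subunits, Tnni2 (ENSMUSG00000031097, chr7:142441808-142444410, plus strand, GRCm38) was the most abundant at day 7. It had 16.6 and 8.01 CPM in Kmt2d-/- clones 1 and 2 at day 7, against 3.08, 1.49 and 0.641 CPM in Kmt2d+/+ clones 1, 2 and 3. At day 0 it had 0.0966 and 0 CPM in Kmt2d-/- clones, against 0, 0.0232 and 0.0211 CPM in Kmt2d+/+ clones. Tnni2 was thus near the limit of detection before differentiation in every clone, and at day 7 the lowest Kmt2d-/- clone lay above the highest Kmt2d+/+ clone. The means at day 7 were 12.3 ± 6.06 CPM in Kmt2d-/- clones (SD, n = 2) and 1.74 ± 1.24 CPM in Kmt2d+/+ clones (SD, n = 3).

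The log2 fold change of Tnni2 between the genotypes at day 7 was 2.83 ± 0.81 (SE; edgeR adjusted p = 0.103). With each clone left out in turn it lay between 2.20 and 3.53. The adjusted p was 0.00535 by DESeq2 and 0.0305 by limma-voom, and it ranged from 0.00535 to 0.350 over all alternatives. Scaling each library for the expression of neighbouring genes on the chromosome gave 2.98. Whether Tnni2 passed thus depended on the tool, while its direction was the same in all alternatives run.

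Between the days Tnni2 rose in both genotypes. Its counts at day 7 were 862 and 437 in Kmt2d-/- clones, against 4 and 0 at day 0, and the ratio of summed counts per depth was 259 (exact 95% interval 101 to 953). In Kmt2d+/+ clones its counts at day 7 were 187, 101 and 47, against 0, 1 and 1 at day 0, a ratio of 104 (28.6 to 863). Every clone was higher at day 7 than at day 0. The edgeR adjusted p was 0.0317 in Kmt2d-/- clones and 0.0209 in Kmt2d+/+ clones.

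These calls rest on few clones. In Kmt2d-/- clones the adjusted p of Tnni2 was 0.210 without Kmt2d-/- clone 1, 0.144 without Kmt2d-/- clone 2, 0.0512 without Kmt2d+/+ clone 2, 0.0935 without Kmt2d+/+ clone 3, and 0.118 when only the Kmt2d-/- libraries were fitted. In Kmt2d+/+ clones leaving out clone 1 gave 0.142 and leaving out clone 3 gave 0.207. No gene at all passed in the Kmt2d+/+ day comparison without either of those clones.

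The slow skeletal and cardiac inhibitory subunits were scarce. Tnni1 (chr1:135779434-135810989, plus strand) had 0.0192 and 0.147 CPM in Kmt2d-/- clones 1 and 2 at day 7, against 1.18, 0.0442 and 0.0682 CPM in Kmt2d+/+ clones 1, 2 and 3. Before differentiation it had 0.0242 and 0 CPM in Kmt2d-/- clones and 0 CPM in all 3 Kmt2d+/+ clones. Kmt2d+/+ clone 1 at day 7, with 72 counts, was thus the single library with more than 8 counts of Tnni1. Tnni1 was at least 5.52-fold higher at day 7 than at day 0 in Kmt2d+/+ clones, taking 3 counts per library as the floor, and almost all of its counts came from clone 1.

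Tnni3 (chr7:4518305-4524229, minus strand) had 0.154 and 0.147 CPM in Kmt2d-/- clones at day 7, against 0.280, 0.0147 and 0.136 CPM in Kmt2d+/+ clones. At day 0 it had 0.0966 and 0.0688 CPM in Kmt2d-/- clones, against 0, 0.0232 and 0.0211 CPM in Kmt2d+/+ clones. The genotypes overlapped at day 7. At day 0 the ratio of Kmt2d-/- to Kmt2d+/+ counts was 5.17, with an exact 95% interval of 0.983 to 51.0 that covers counting error only. Tnni3 shares 86 of its 2063 annotated exon bases with Dnaaf3 on the same strand, and reads there could be assigned to either gene. At day 0 Dnaaf3 had 0.573 to 0.628 CPM in Kmt2d-/- clones, against 0.0232 to 0.126 CPM in Kmt2d+/+ clones. Its log2 fold change there was 2.89 (edgeR adjusted p = 0.0567), and its part in the Tnni3 counts was not tested.

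Among the tropomyosin-binding subunits, Tnnt3 (ENSMUSG00000061723, chr7:142498836-142516009, plus strand) followed the same order as Tnni2. It had 1.98 and 1.27 CPM in Kmt2d-/- clones 1 and 2 at day 7, against 0.329, 0.192 and 0.177 CPM in Kmt2d+/+ clones 1, 2 and 3. Before differentiation it had 0 CPM in both Kmt2d-/- clones, against 0.0286, 0 and 0.0211 CPM in Kmt2d+/+ clones. Tnnt3 was therefore at or below the floor everywhere at day 0, and the genotypes did not overlap at day 7.

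The log2 fold change of Tnnt3 between the genotypes at day 7 was 2.79 ± 0.60 (SE; edgeR adjusted p = 0.0589), with means of 1.62 ± 0.506 CPM in Kmt2d-/- clones (SD, n = 2) and 0.233 ± 0.0837 CPM in Kmt2d+/+ clones (SD, n = 3). It lay between 2.43 and 3.12 with each clone left out. The adjusted p was 0.0198 by both DESeq2 and limma-voom and ranged from 0.0198 to 0.299 over the alternatives.

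Tnnt3 also rose with differentiation in both genotypes. In Kmt2d-/- clones it was at least 22.9-fold higher at day 7 than at day 0, with 103 and 69 counts at day 7 against 0 and 0 at day 0 (edgeR adjusted p = 0.0207). In Kmt2d+/+ clones its 20, 13 and 13 counts at day 7, against 1, 0 and 1 at day 0, gave a ratio of 14.3 (exact 95% interval 3.74 to 122; edgeR adjusted p = 0.0392). The call in Kmt2d-/- clones was lost without Kmt2d-/- clone 1 (adjusted p = 0.277), Kmt2d-/- clone 2 (0.136) or Kmt2d+/+ clone 3 (0.0967), and when only Kmt2d-/- libraries were fitted (0.118). The call in Kmt2d+/+ clones was lost whichever of the 5 clones was left out, at adjusted p between 0.0603 and 0.276, and from either run alone (0.109 and 0.0737).

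Tnnt2 (ENSMUSG00000026414, chr1:135836354-135852260, plus strand) showed the same order of genotypes on both days. It had 0.5001 and 0.147 CPM in Kmt2d-/- clones 1 and 2 at day 7, against 1.27, 2.49 and 0.709 CPM in Kmt2d+/+ clones 1, 2 and 3. At day 0 it had 0.290 and 0.275 CPM in Kmt2d-/- clones, against 0.802, 2.44 and 0.653 CPM in Kmt2d+/+ clones. Both Kmt2d-/- clones lay below all 3 Kmt2d+/+ clones on each day, and Kmt2d+/+ clone 2 was the highest on each day.

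The log2 fold change of Tnnt2 was -2.20 ± 0.84 (SE; edgeR adjusted p = 0.194) at day 7 and -2.19 ± 0.85 (SE; adjusted p = 0.192) at day 0. Neither passed, and at day 7 the adjusted p ranged from 0.0820 to 0.526 over the alternatives. Day 7 against day 0 gave 0.19 in Kmt2d-/- clones (adjusted p = 0.958) and 0.20 in Kmt2d+/+ clones (adjusted p = 0.890). The clones of a genotype are the same lines on both days, so the day 7 and day 0 values of Tnnt2 are not separate evidence of its order.

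Tnnt1 (chr7:4504570-4516382, minus strand), the slow skeletal form, had 0.135 and 0.220 CPM in Kmt2d-/- clones at day 7, against 0.132, 0.251 and 0.123 CPM in Kmt2d+/+ clones. Before differentiation it had 0.0483 and 0.0229 CPM in Kmt2d-/- clones, against 0, 0.0464 and 0.0632 CPM in Kmt2d+/+ clones. The genotypes overlapped on both days, and the log2 fold change at day 7 was 0.08 ± 0.75 (SE; edgeR adjusted p = 0.972). It turned to -0.12 under the scaling for neighbouring genes. Around Tnnt1 and Tnni3 those genes, averaged over both days, stood at 0.70 (log2) in Kmt2d-/- clone 1 and at -0.09 in Kmt2d-/- clone 2, relative to Kmt2d+/+ clones. The ratio of day 7 to day 0 counts of Tnnt1 was 5.05 (exact 95% interval 1.49 to 26.7) in Kmt2d-/- clones and 4.22 (1.64 to 13.8) in Kmt2d+/+ clones. Neither day comparison passed. Tnnt1 had 0 to 3 counts in every library of day 0 and passed the filter through its day 7 libraries, so these ratios are a description.

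Among the calcium-binding subunits, Tnnc1 (ENSMUSG00000091898, chr14:31208312-31211729, plus strand) had 1.44 and 0.844 CPM in Kmt2d-/- clones 1 and 2 at day 7, against 2.11, 11.6 and 13.1 CPM in Kmt2d+/+ clones 1, 2 and 3. At day 0 it had 0.918 and 1.33 CPM in Kmt2d-/- clones, against 0.745, 0.650 and 0.801 CPM in Kmt2d+/+ clones. At day 7 both Kmt2d-/- clones lay below every Kmt2d+/+ clone, whereas at day 0 both lay above every Kmt2d+/+ clone. Kmt2d+/+ clone 1 at day 7 stood nearer to the Kmt2d-/- clones than to the other Kmt2d+/+ clones.

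The log2 fold change of Tnnc1 between the genotypes was -2.97 ± 0.74 (SE; edgeR adjusted p = 0.0741) at day 7 and 0.62 ± 0.66 (SE; adjusted p = 0.645) at day 0. At day 7 it lay between -3.43 and -2.58 with each clone left out. Its adjusted p was 0.000458 by DESeq2 and ranged from 0.000458 to 0.294 over the alternatives.

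Tnnc1 rose between the days in Kmt2d+/+ clones, by 3.61 ± 0.65 (log2, SE; edgeR adjusted p = 0.0245), and every Kmt2d+/+ clone was higher at day 7 than at day 0. In Kmt2d-/- clones its log2 fold change was 0.02 ± 0.72 (SE; adjusted p = 0.996), with clone 1 higher and clone 2 lower at day 7. The call in Kmt2d+/+ clones was lost without Kmt2d+/+ clone 1 (adjusted p = 0.0648), clone 2 (0.0677) or clone 3 (0.247), and limma-voom gave 0.0720. The difference of the day effects, Kmt2d-/- minus Kmt2d+/+, was -3.58 ± 0.96 (log2, SE), with an unadjusted p of 0.00473 and an adjusted p of 1 in edgeR.

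Tnnc1 lies within Nisch, on the opposite strand, and shares 0 of its 1041 annotated exon bases with Nisch exons. Nisch had 571 to 904 CPM over the 10 libraries, far above Tnnc1, and whether counting used strand is not given in the sources used here. Between the days Nisch had a log2 fold change of 0.17 in Kmt2d+/+ clones (edgeR adjusted p = 0.573).

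Tnnc2 (ENSMUSG00000017300, chr2:164777161-164779967, minus strand), the fast skeletal calcium sensor, did not follow Tnni2 and Tnnt3. It had 0.846 and 0.550 CPM in Kmt2d-/- clones 1 and 2 at day 7, against 0.181, 10.8 and 1.83 CPM in Kmt2d+/+ clones 1, 2 and 3. Before differentiation it had 0.314 and 0.298 CPM in Kmt2d-/- clones, against 0.487, 0.441 and 0.126 CPM in Kmt2d+/+ clones. The genotypes overlapped on both days, and Kmt2d+/+ clone 2 at day 7, with 729 counts, stood far above every other library.

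The log2 fold change of Tnnc2 between the genotypes at day 7 was -2.60 ± 1.33 (SE; edgeR adjusted p = 0.318), and without Kmt2d+/+ clone 2 it was -0.53 (adjusted p = 0.814). Over all alternatives its adjusted p at day 7 ranged from 0.144 to 0.814. For day 7 against day 0 in Kmt2d+/+ clones it was 3.60 ± 1.20 (SE; adjusted p = 0.108), with 0.00802 by DESeq2, the lowest of a range that reached 0.390. Without Kmt2d+/+ clone 2 that day effect was 1.74 (adjusted p = 0.348). The estimated counts of Tnnc2 also differed between runs of a library: Kmt2d+/+ clone 1 had 0 and 11 at day 7 and 17 and 0 at day 0.

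Of the 800 annotated exon bases of Tnnc2, 592 are shared with Ube2c on the opposite strand, and how reads of the shared bases were assigned was not tested. Ube2c, a ubiquitin-conjugating enzyme of mitosis, had 36.2 to 78.6 CPM over the 10 libraries. At day 7 it had 46.3 and 56.9 CPM in Kmt2d-/- clones, against 38.7, 56.3 and 36.2 CPM in Kmt2d+/+ clones. Kmt2d+/+ clone 2, where Tnnc2 was highest, had the highest Ube2c level of the Kmt2d+/+ libraries of day 7, below the 56.9 CPM of a Kmt2d-/- library.

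**Figure D2:**
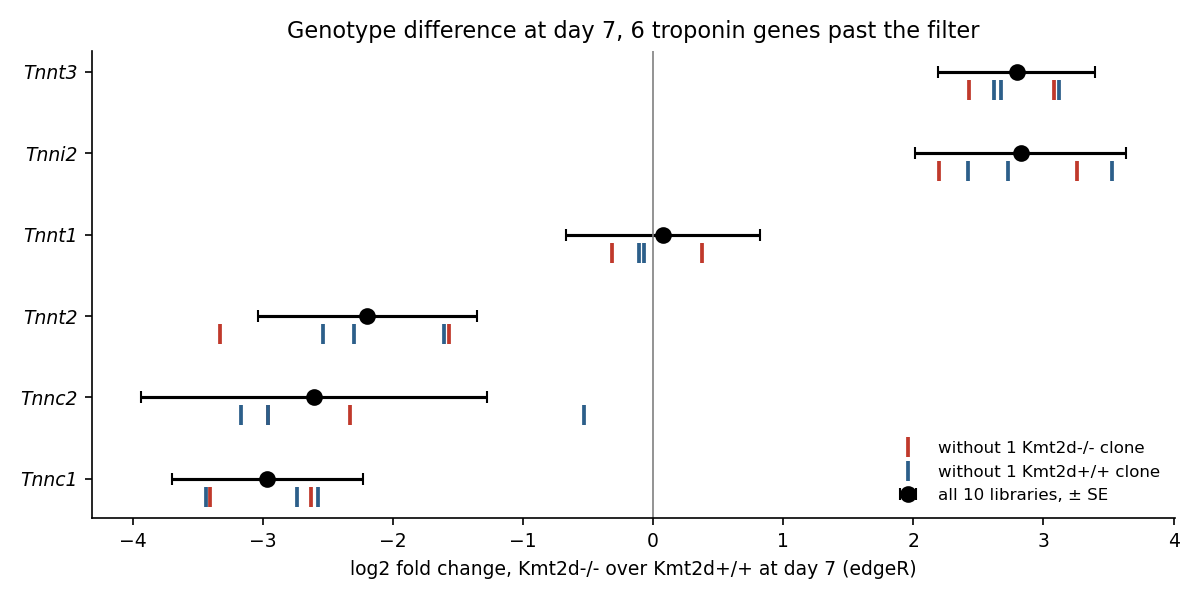
Log2 fold change of Kmt2d-/- over Kmt2d+/+ clones at day 7 for the 6 fitted troponin genes, as the edgeR estimate ± SE, with tick marks for the estimate when each clone is left out. Tnni2 and Tnnt3 lie above 0 and Tnnc1 and Tnnt2 below it under every left-out clone, while the Tnnc2 estimate moves to -0.53 without Kmt2d+/+ clone 2.

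Levels of different genes were compared per length, as CPM per kilobase of the longest protein-coding transcript. In Kmt2d-/- clones at day 7, Tnni2 led with 16.01 ± 7.89, followed by Tnnc1 with 1.59 ± 0.588, Tnnt3 with 1.504 ± 0.469 and Tnnc2 with 0.997 ± 0.299 CPM per kilobase (SD, n = 2). Only the step from Tnni2 to Tnnc1 exceeded the spread between clones among these neighbours. In Kmt2d+/+ clones at day 7, Tnnc1 led with 12.4 ± 8.27, followed by Tnnc2 with 6.08 ± 8.12, Tnni2 with 2.26 ± 1.61 and Tnnt2 with 1.24 ± 0.760 CPM per kilobase (SD, n = 3), and these neighbours did not differ beyond their spread.

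The remaining members were low per length at day 7. Tnni1 averaged 0.0721 CPM per kilobase in Kmt2d-/- clones and 0.376 in Kmt2d+/+ clones, where clone 1 had 1.03. Tnnt2 averaged 0.270 CPM per kilobase in Kmt2d-/- clones, and Tnnt3 averaged 0.216 CPM per kilobase in Kmt2d+/+ clones. Tnnt1 averaged 0.167 CPM per kilobase in Kmt2d-/- clones and 0.159 in Kmt2d+/+ clones, and Tnni3 averaged 0.165 and 0.157. At day 0 the calcium sensors and Tnnt2 made up most of the little that was present: Tnnc1 averaged 1.56 CPM per kilobase in Kmt2d-/- clones and 1.02 in Kmt2d+/+ clones, and Tnnt2 averaged 0.235 and 1.08.

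As a share of all counts assigned to the 8 genes, Tnni2 took 76.6% and 70.7% in Kmt2d-/- clones 1 and 2 at day 7, against 36.0%, 5.55% and 3.82% in Kmt2d+/+ clones 1, 2 and 3. Tnnc1 took 6.66% and 7.44% in Kmt2d-/- clones, against 24.6%, 43.2% and 78.1% in Kmt2d+/+ clones. The Kmt2d+/+ clones thus differed among themselves: Tnni2 had the largest share in clone 1, Tnnc1 in clones 2 and 3, and Tnnc2 took 40.1% in clone 2. At day 0 Tnnc1 had the largest share in both Kmt2d-/- clones (51.4% and 66.7%), and Tnnt2 took 38.9%, 67.3% and 38.3% in Kmt2d+/+ clones 1, 2 and 3, the largest share in clones 1 and 2.

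The summed level of the 8 genes did not separate the genotypes. It was 21.7 and 11.3 CPM in Kmt2d-/- clones at day 7, against 8.55, 26.8 and 16.8 CPM in Kmt2d+/+ clones. At day 0 it was 1.79 and 2.00 CPM in Kmt2d-/- clones, against 2.06, 3.62 and 1.71 CPM in Kmt2d+/+ clones. Every clone had a higher sum at day 7 than at day 0, and within each day the genotypes overlapped.

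**Figure D3:**
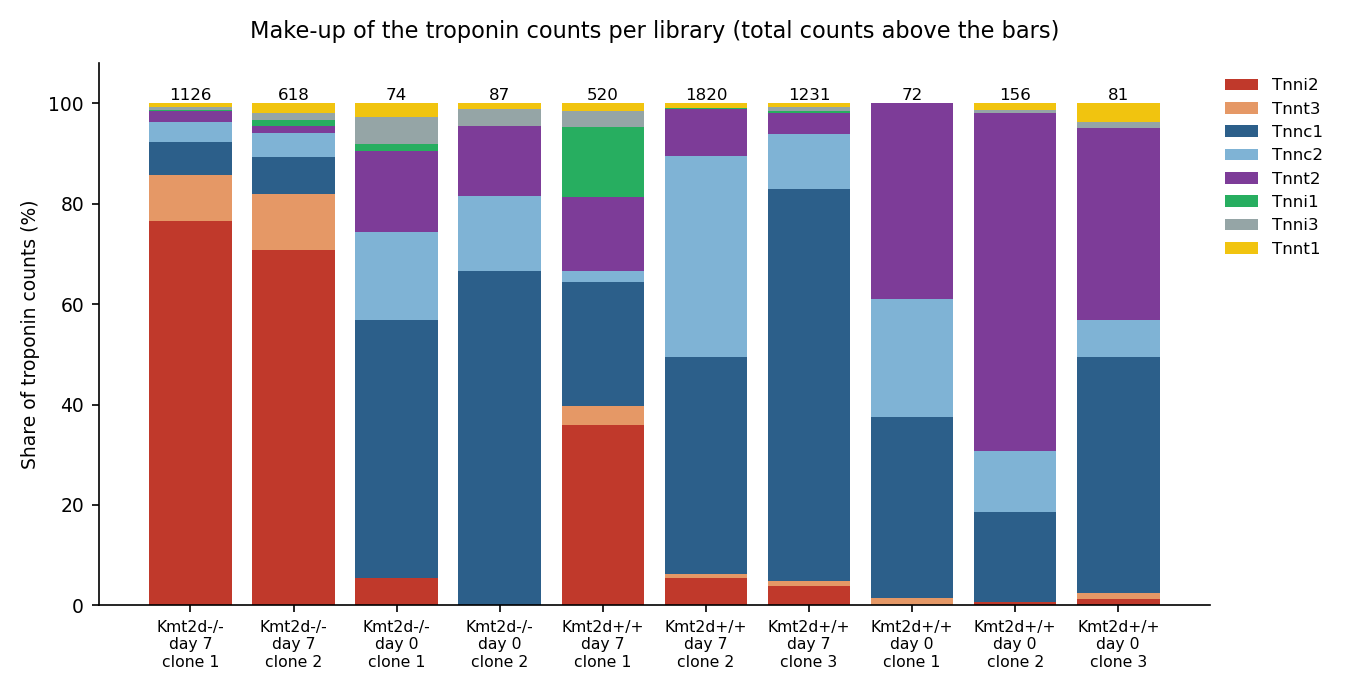
Share of each troponin gene in the counts assigned to the 8 genes, in percent, with a bar per library and the number of counts above it. Tnni2 makes up 76.6% and 70.7% of the Kmt2d-/- bars at day 7, Tnnc1 makes up 24.6% to 78.1% of the Kmt2d+/+ bars at day 7, and the day 0 bars rest on 72 to 156 counts.

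Tnni2 and Tnnt3 are neighbours on chromosome 7, in the same orientation with 54425 bases between them, and Lsp1 lies in that interval. Lsp1, an actin-binding protein first described in leukocytes, had 73.8 and 15.9 CPM in Kmt2d-/- clones at day 7, against 19.7, 38.9 and 21.5 CPM in Kmt2d+/+ clones. At day 0 it had 0.845 and 0.367 CPM in Kmt2d-/- clones, against 3.90, 6.13 and 4.49 CPM in Kmt2d+/+ clones. Lsp1 rose between the days in Kmt2d-/- clones by 6.21 (log2; edgeR adjusted p = 0.0207) and in Kmt2d+/+ clones by 2.46 (adjusted p = 0.0439), but unlike Tnni2 and Tnnt3 its genotypes overlapped at day 7 (log2 fold change 0.75, adjusted p = 0.534).

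Syt8, a synaptotagmin family member that ends 1411 bases before Tnni2, had 75.1 and 15.4 CPM in Kmt2d-/- clones at day 7, against 4.52, 10.5 and 1.5 CPM in Kmt2d+/+ clones. Before differentiation it had 0.290 and 0 CPM in Kmt2d-/- clones, against 0.143, 1.37 and 0.0211 CPM in Kmt2d+/+ clones. Its Kmt2d-/- clones lay above all Kmt2d+/+ clones at day 7, as those of Tnni2 did, although the log2 fold change of 3.04 did not pass (edgeR adjusted p = 0.245). Its day effects of 8.28 in Kmt2d-/- clones (adjusted p = 0.0958) and 3.42 in Kmt2d+/+ clones (adjusted p = 0.156) did not pass either. Mrpl23, a mitochondrial ribosomal protein gene 16676 bases beyond Tnnt3, had 3.87 and 3.63 CPM in Kmt2d-/- clones at day 7, against 2.62, 2.90 and 2.21 CPM in Kmt2d+/+ clones, so its Kmt2d-/- clones also lay above all Kmt2d+/+ clones. Its day effects of 1.40 in Kmt2d-/- clones (adjusted p = 0.102) and 0.82 in Kmt2d+/+ clones (adjusted p = 0.117) did not pass.

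**Figure D4:**
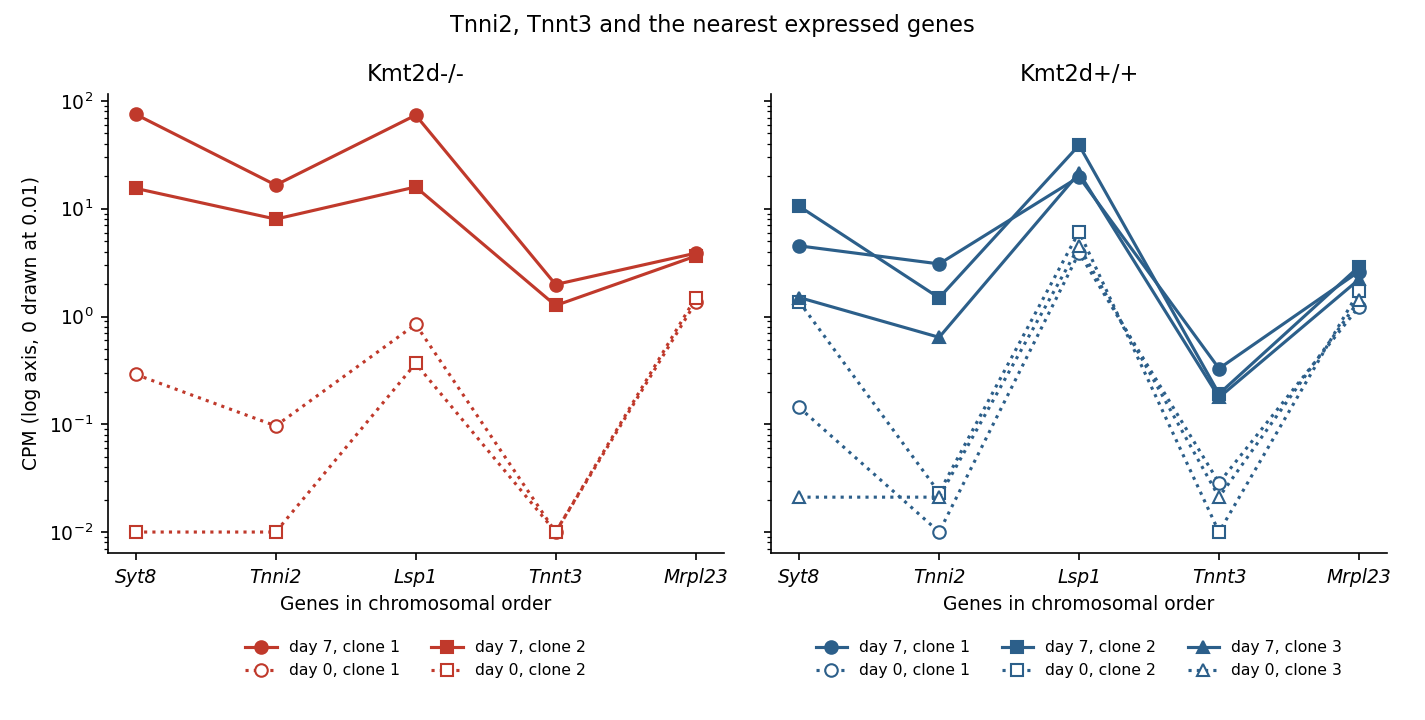
Level in CPM, on a log axis with 0 drawn at 0.01, of Syt8, Tnni2, Lsp1, Tnnt3 and Mrpl23 in their order on chromosome 7, with a point per clone. At day 7 (filled points) both Kmt2d-/- clones lie above all Kmt2d+/+ clones for Syt8, Tnni2, Tnnt3 and, by the smallest margin, Mrpl23, while Lsp1 overlaps between genotypes.

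Of the other 6 troponin genes 4 are paired in the genome as well, and Tnnc1 and Tnnc2 are not: Tnni1 and Tnnt2 lie 25364 bases apart on chromosome 1, and Tnni3 and Tnnt1 lie 1922 bases apart on chromosome 7. Tnni1 and Tnnt2 did not share a pattern, since Kmt2d+/+ clone 1 at day 7 was highest for Tnni1 and Kmt2d+/+ clone 2 was highest for Tnnt2. The genes around Tnni2 and Tnnt3 were taken at their median level, with both days of a clone averaged. That level was -0.13 and -0.28 (log2) in Kmt2d-/- clones 1 and 2, relative to Kmt2d+/+ clones. The higher levels of Tnni2 and Tnnt3 in Kmt2d-/- clones concern day 7 alone, so they are not set against that level.

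Promoters are shown for Tnnc1 and Tnnt2, the members with lower levels in both Kmt2d-/- clones at day 7 for which RefSeq (GRCm38.p6) sequences were at hand. Of the 8 genes 6 had an entry, and Tnni2 and Tnnt3 did not. Each window holds the 250 bases before the RefSeq start on the plus strand, chr14:31208062-31208311 for Tnnc1 and chr1:135836084-135836333 for Tnnt2. Capitals mark E-boxes (CANNTG, the motif of myogenic basic helix-loop-helix factors), the M-CAT motif CATTCC bound by TEAD factors, and TATAA, each searched on both strands, and no matches overlapped.
Tnnc1: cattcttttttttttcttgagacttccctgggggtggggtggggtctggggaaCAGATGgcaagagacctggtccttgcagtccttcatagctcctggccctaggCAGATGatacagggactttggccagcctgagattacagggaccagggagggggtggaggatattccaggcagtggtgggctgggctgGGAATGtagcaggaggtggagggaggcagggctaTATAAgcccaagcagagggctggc
Tnnt2: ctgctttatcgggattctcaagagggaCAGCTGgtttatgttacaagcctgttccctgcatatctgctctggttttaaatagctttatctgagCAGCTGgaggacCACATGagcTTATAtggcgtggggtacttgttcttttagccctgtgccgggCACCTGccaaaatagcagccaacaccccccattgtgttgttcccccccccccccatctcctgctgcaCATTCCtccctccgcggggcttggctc

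Tnnc1 held 2 E-boxes, an M-CAT motif on the reverse strand from -58 to -53 relative to the start, and TATAA from -24 to -20. Tnnt2 held 4 E-boxes, an M-CAT motif from -27 to -22 and a reverse-strand TATAA from -136 to -132. An E-box occurred in 66% of all 27025 promoter windows of this length, M-CAT in 12.6% and TATAA in 23.5%. These matches describe the letters of the windows and are not evidence of binding.

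The genes whose profile was most like that of a member were taken over the 10 libraries as the highest Pearson correlation of log2 CPM, among 11686 genes that averaged 1 CPM or more, for Tnni2, Tnnc1 and Tnnc2. The points share clones and libraries, so the correlations are a description. For Tnni2 they were Fmod (r = 0.991), which encodes the cartilage proteoglycan fibromodulin, Ucma (0.982), which encodes a secreted Gla-rich cartilage protein, and Rtkn (0.978). Fmod had 280 and 129 CPM in Kmt2d-/- clones at day 7, against 71.6, 68.9 and 25.5 CPM in Kmt2d+/+ clones, with 1.90 to 7.92 CPM over the libraries of day 0. Ucma had 39.97 and 9.79 CPM in Kmt2d-/- clones at day 7, against 2.88, 3.67 and 1.06 CPM in Kmt2d+/+ clones. Like Tnni2, both had Kmt2d-/- clone 1 highest and Kmt2d+/+ clone 3 lowest at day 7.

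The correlation of Tnni2 was 0.961 with Tnnt3, 0.842 with Tnnt1, 0.352 with its fast skeletal partner Tnnc2, 0.335 with Tnnc1 and -0.11 with Tnnt2. With Col2a1 it was 0.712. The summed level of 10 chondrocyte markers was 23580 and 27760 CPM in Kmt2d-/- clones at day 7, against 319 to 1077 CPM in Kmt2d+/+ clones, and its part in the Tnni2 and Tnnt3 levels was not tested.

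For Tnnc1 the most similar genes were Nrp2 (r = 0.932), a neuropilin receptor, Irf1 (0.930), an interferon-regulated transcription factor, and Fbxw17 (0.910), which encodes an F-box protein. Nrp2 had 457 and 317 CPM in Kmt2d-/- clones at day 7, against 527, 795 and 775 CPM in Kmt2d+/+ clones. Irf1 had 17.8 and 20.2 CPM in Kmt2d-/- clones at day 7, against 29.0, 55.2 and 48.5 CPM in Kmt2d+/+ clones. Both, like Tnnc1, were lower in both Kmt2d-/- clones than in Kmt2d+/+ clone 1 and highest in Kmt2d+/+ clones 2 and 3 on that day.

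For Tnnc2 they were Zbp1 (0.950), Oasl1 (0.944) and Mx1 (0.925), all interferon-induced genes. Mx1 had 0.808 and 2.66 CPM in Kmt2d-/- clones at day 7, against 0.411, 52.0 and 4.62 CPM in Kmt2d+/+ clones. In Kmt2d+/+ clones 1, 2 and 3 at day 7, Zbp1 had 0.0658, 61.1 and 1.92 CPM and Oasl1 had 0.148, 77.9 and 3.71 CPM. The Kmt2d+/+ clone 2 library of day 7 thus stood apart for these genes and for Tnnc2 alike, and the part of that state in the Tnnc2 level was not tested.

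**Figure D5:**
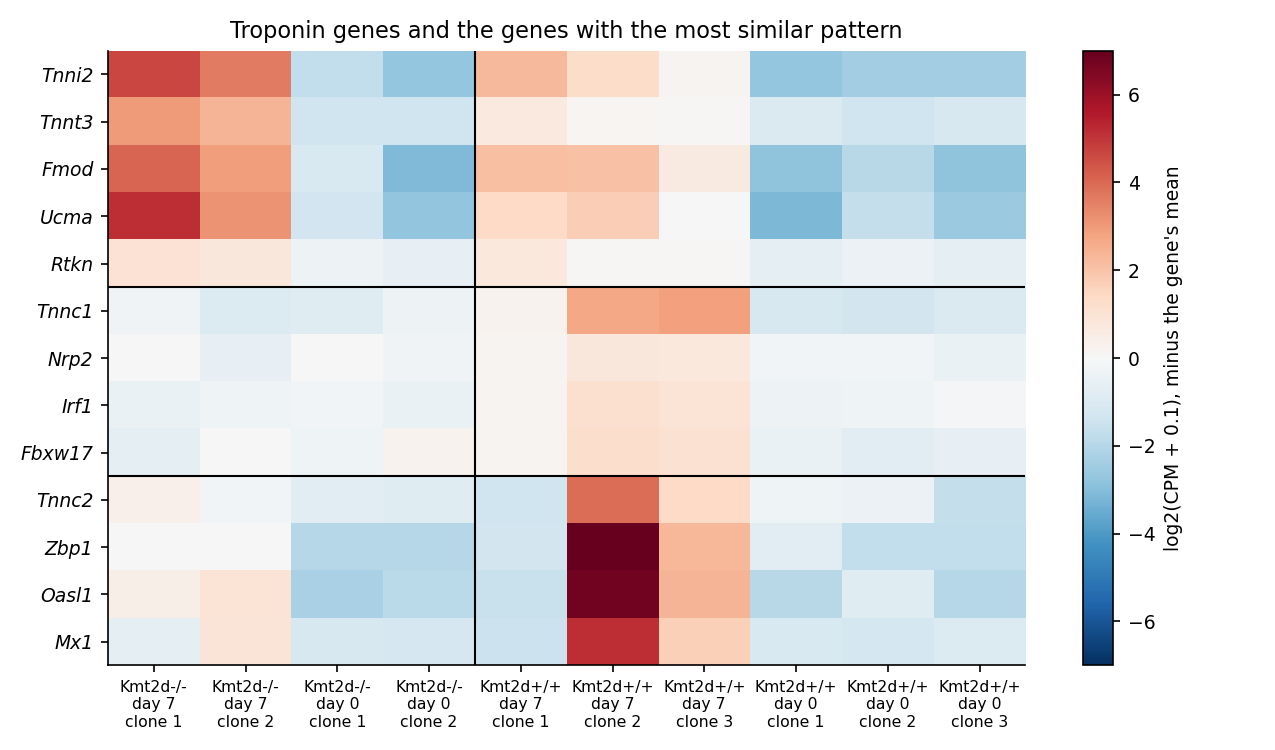
Heat map of log2(CPM + 0.1) minus the gene's mean over the 10 libraries, for Tnni2 with Tnnt3, Tnnc1 and Tnnc2, each followed by its 3 genes of most similar profile. The Tnni2 group is highest in Kmt2d-/- clone 1 at day 7, the Tnnc1 group in Kmt2d+/+ clones 2 and 3 at day 7, and the Tnnc2 group in Kmt2d+/+ clone 2 at day 7.

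The troponin changes were set beside the other parts of the striated muscle machinery. Of 48 genes of the sarcomere and of excitation-contraction coupling other than troponins, 28 passed the filter. In the genotype comparison at day 7, 0 of the 28 passed in edgeR and 8 had an unadjusted p under 0.05, beside 19.9% of all genes. DESeq2 called 4, beside 10.4% of all genes, and limma-voom 1 (Myl1), beside 3.45%; their median log2 fold change was -0.74, beside -0.02 over all genes. Myl1, the fast skeletal essential myosin light chain, had 0 counts in both Kmt2d-/- clones at day 7 and was at least 8.09-fold higher in Kmt2d+/+ clones there. It was picked out after its values were seen and passed the filter through Kmt2d+/+ libraries. Other fast skeletal genes of the list did not share a direction there. Their log2 fold changes were 1.16 for Atp2a1 and 0.46 for Mylpf, against -1.91 for Actn3 and -2.01 for Casq1. In Kmt2d+/+ clones 2 of the 28 passed as higher between the days in edgeR, beside 3.05% of all genes. These were the slow and cardiac light chain Myl3, by 3.38 (log2, adjusted p = 0.0491), and the nebulin relative Nebl, by 1.75 (adjusted p = 0.0368). In either direction 8 had an unadjusted p under 0.05, beside 24.7% of all genes. DESeq2 called 6 and limma-voom 1, beside 14.7% and 5.08%.

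No sarcomere gene of the list passed between the days in Kmt2d-/- clones in edgeR (0 of 28). At an unadjusted p under 0.05 there were 6, beside 14.8% of all genes, and DESeq2 called 2 and limma-voom 0, beside 6.46% and 1.16%. The summed level of the list was 102.8 and 113.3 CPM in Kmt2d-/- clones at day 7, against 186.6, 97.2 and 129.3 CPM in Kmt2d+/+ clones, so the genotypes overlapped. At day 7, 11 and 13 of the 48 genes had 0 counts in Kmt2d-/- clones, against 10, 9 and 9 in Kmt2d+/+ clones. Over the 10 libraries the list ran from Nebl, at 13.4 to 82.4 CPM, and the M-band protein gene Myom1, at 5.19 to 76.8 CPM, to the muscle creatine kinase gene Ckm, with 0 counts throughout.

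Of 17 myogenic regulators 10 passed the filter. Between the genotypes at day 7, edgeR called 1 of them, as lower, beside 0.97% of all genes. There 3 had an unadjusted p under 0.05, beside 19.9%, DESeq2 called 2, beside 10.4%, and limma-voom 1, beside 3.45%. Between the days edgeR called 1 as higher in Kmt2d-/- clones, beside 0.672% of all genes. In Kmt2d+/+ clones it called 1 as higher and 1 as lower, beside 3.05% and 2.04%. At an unadjusted p under 0.05 there were 2 in Kmt2d-/- and 3 in Kmt2d+/+ clones, beside 14.8% and 24.7%. DESeq2 called 2 and 3, beside 6.46% and 14.7%, and limma-voom 1 and 2, beside 1.16% and 5.08%. Vgll2, a TEAD cofactor of skeletal muscle, had 0.0385 and 0 CPM in Kmt2d-/- clones at day 7, against 1.81, 1.92 and 7.09 CPM in Kmt2d+/+ clones. It was the only regulator called there in edgeR (adjusted p = 0.0362). Its counts in Kmt2d-/- clones summed to 2 at day 7 and 0 at day 0. Vgll2 thus passed the filter through Kmt2d+/+ libraries, and its call follows in part from that filter. That call was lost whichever of the 5 clones was left out, at adjusted p between 0.0531 and 0.164. Mef2a, a muscle and cardiac transcription factor, rose between the days by 1.73 (log2) in Kmt2d-/- clones (adjusted p = 0.0410) and by 1.65 in Kmt2d+/+ clones (adjusted p = 0.0185). Tead1, which binds M-CAT motifs, fell by 0.78 in Kmt2d+/+ clones (adjusted p = 0.0486). The myogenic determination and differentiation factors were at or under the floor. Myod1 had 2 counts in each Kmt2d-/- library of day 0 and 0 in the other 8, Myf5 and Myf6 had at most 1 count in a library, and Myog had 0 in all 10. The myoblast fusion genes Mymk and Mymx had at most 2 and 0 counts in a library.

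Partners and relatives of the troponin subunits were set beside all genes in the same way. The 4 tropomyosin genes encode the filament that troponin T holds. Tpm4 fell by 0.80 (log2) between the days in Kmt2d+/+ clones (edgeR adjusted p = 0.0438), beside 2.04% of all genes called lower. There 2 had an unadjusted p under 0.05, beside 24.7% of all genes. DESeq2 called 2 and limma-voom 1, beside 14.7% and 5.08%. None passed between the genotypes on either day (0 at an unadjusted p under 0.05, beside 19.9% and 20.2% of all genes, and 0 by DESeq2 and limma-voom). Of 18 smooth muscle and non-muscle contractile genes, Myl6 was lower by 1.01 in Kmt2d-/- than in Kmt2d+/+ clones at day 0 (edgeR adjusted p = 0.0239). It was the only 1 that edgeR called there, beside 0.976% of all genes called lower, and 0 passed at day 7. At an unadjusted p under 0.05 there were 5 on each day, beside 20.2% at day 0 and 19.9% at day 7. DESeq2 called 3 at day 0 and 4 at day 7, beside 10.6% and 10.4%. By limma-voom these counts were 1 and 0, beside 1.72% and 3.45%. In Kmt2d+/+ clones 3 of the 18 fell between the days in edgeR, beside 2.04% of all genes. These were Cald1 by 0.89 (adjusted p = 0.0417), Myh9 by 0.84 (0.0307) and Tagln2 by 0.99 (0.0429). There 9 had an unadjusted p under 0.05, beside 24.7%, DESeq2 called 7, beside 14.7%, and limma-voom 4, beside 5.08%. In Kmt2d-/- clones edgeR called 0 between the days. There 5 had an unadjusted p under 0.05, beside 14.8%, DESeq2 called 3, beside 6.46%, and limma-voom 0, beside 1.16%. Of 14 other EF-hand calcium sensors, the protein class of troponin C, S100b rose by 5.27 in Kmt2d-/- clones (edgeR adjusted p = 0.0405) and by 4.20 in Kmt2d+/+ clones (adjusted p = 0.0236). S100a1 rose by 2.30 in Kmt2d+/+ clones (adjusted p = 0.0382). These calls stand beside 0.672% and 3.05% of all genes called higher, and DESeq2 called 3 and 2, beside 6.46% and 14.7%. Between the genotypes edgeR called 0 on either day. At day 7 DESeq2 called 3 and limma-voom 1, beside 10.4% and 3.45%. At day 0 they called 1 and 0, beside 10.6% and 1.72%. All of these edgeR day calls, and those of Mef2a, Tead1, Myl3, Nebl and Lsp1, were lost with 1 clone left out. No gene passed between the days in Kmt2d+/+ clones without Kmt2d+/+ clone 1 or 3, or in Kmt2d-/- clones without Kmt2d+/+ clone 3. The Myl6 call was lost when any clone except Kmt2d+/+ clone 2 was left out, at adjusted p between 0.0660 and 0.190.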

How the data were processed

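Polyadenylated RNA of 2 Kmt2d-/- and 3 Kmt2d+/+ ATDC5 clones was sequenced at day 7 and day 0. The authors deposited unnormalized estimated counts per gene for 20 runs and 27911 Ensembl genes; when runs were summed, 0.369% of the nonzero values were whole within 0.001. Tools named per the submitters' processing notes are DESeq2, edgeR, limma and Salmon, with build GRCm38. Their versions, the annotation and the use of strand were not given in these sources, so reads of overlapping genes on opposite strands may not be told apart, and estimated counts split reads between similar transcripts.

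The 2 runs of each library were summed and rounded. One edgeR model (4.0.16, R 4.3.3) with a mean per group was fitted to all 10 libraries, with filterByExpr (15467 genes), TMM scaling, 6 residual degrees of freedom, the quasi-likelihood F test and Benjamini-Hochberg adjustment over all genes (threshold 0.05). The common coefficient of biological variation was 0.385. Scripts were tested on simulated counts. Ratios for sparse genes use summed counts with exact 95% intervals, or a floor of 3 counts per library where a group had 0. Coordinates follow GENCODE vM21 (GRCm38).

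The days of a clone pair by design, since they are the same clonal line, and their deviations from the group means correlated with r between 0.363 and 0.571. Alternatives were DESeq2 1.42.0, limma-voom (limma 3.58.1) with and without a clone block, a term for each clone, other scalings and filters, each run alone, only the groups compared, a scaling for the genes around a locus, and each clone left out. The scaling for a locus used the median level of up to 50 genes on each side, fewer near a chromosome end, with both days of a clone averaged.

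Named genes were the 8 troponin genes, from each list at most 4 genes that passed or, failing that, the gene with the highest level, the 3 most similar profiles per member with a mean of at least 1 CPM, and the nearest expressed protein-coding neighbours. Myl1, Atp2a1, Mylpf, Actn3, Casq1, Myom1, Ckm, Myod1, Myf5, Myf6, Myog, Mymk, Mymx and Fabp4 are outside that rule and were named after their values were seen. The members and lists were chosen with earlier results of these data known. Lists of cardiac transcription factors, adipocyte, endothelial, immune and neural markers were also examined.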

Additional observations from a re-analysis of the deposited data

How the results depend on the processing

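Of 295 values of the troponin genes under alternatives, 248 kept their direction and side of the threshold, 23 lost a call, 8 gained one and 16 changed sign. The count of troponin genes differing between genotypes at day 7, 0 in edgeR, was 3 by DESeq2 and 2 by limma-voom, with or without a random replicate block for the clone, and 0 with each clone left out. The count between days in Kmt2d-/- clones, 2, was 0 when only the groups compared were fitted and 0 to 2 with a clone left out; that in Kmt2d+/+ clones, 3, was 0 to 2. With a clone term as replicate block these counts stayed at 2 and 3, while calls over all genes came to 862 and 2789, against 196 and 786.

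Sign changes concerned values near 0. Tnnt1 between genotypes at day 7 (0.08) was -0.12 under regional scaling and -0.32 to 0.38 with a clone left out. Tnnc2 at day 0 (-0.19) was 0.29 from run 2 alone, 0.0557 by limma-voom, 0.0862 with its random replicate block and -0.62 to 0.12 with a clone left out. Between days in Kmt2d-/- clones, Tnnc1 (0.02) was -0.0585 from run 1, -0.0129 by limma-voom, -0.00269 with the clone term as replicate block and -0.66 to 0.65 with a clone left out; Tnnt2 (0.19) was -0.35 from run 1, -0.0711 by limma-voom and -0.90 to 0.78. The causes were not tested.

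Calls over all genes moved further. Between genotypes at day 7 (290) they were 184 from run 2, 1605 by DESeq2, 533 by limma-voom, 442 with its block, 55 with only the groups compared and 10 to 272 with a clone left out. At day 0 (332) they were 1632, 193 with the limma-voom block, 9 with only the groups compared, 220 under regional scaling and 10 to 912. Between days they were 999 by DESeq2, 0 with only the groups compared and 0 to 183 in Kmt2d-/- clones, and 2280 by DESeq2 and 0 to 862 in Kmt2d+/+ clones. With 6 residual degrees of freedom and few counts of most members, the fits carry wide errors, and members at or under 3 counts in a library were not measurable at this depth.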

Other observations

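The 10 chondrocyte markers all passed the filter. At day 7 all 10 had an unadjusted edgeR p under 0.05 between the genotypes, beside 19.9% of all genes. DESeq2 called 6 there and limma-voom 5, beside 10.4% and 3.45%. At day 0 these counts were 7, 2 and 1, beside 20.2%, 10.6% and 1.72%. Between the days they were 9, 5 and 4 in Kmt2d-/- clones, beside 14.8%, 6.46% and 1.16%. In Kmt2d+/+ clones they were 9, 7 and 2, beside 24.7%, 14.7% and 5.08%. In edgeR 2 passed as higher in Kmt2d-/- clones at day 7 (Col2a1 and Matn3), beside 0.905%, and 1 at day 0 (Col2a1), beside 1.17%. Between the days 2 passed as higher in Kmt2d-/- clones (Comp and Matn3), beside 0.672%. In Kmt2d+/+ clones 4 did (Col2a1, Col9a1, Comp and Matn3), beside 3.05%. Left-out clones ended these calls too: for Col2a1 at day 7 the adjusted p was 0.0926 without Kmt2d-/- clone 1, 0.0755 without Kmt2d-/- clone 2, 0.0524 without Kmt2d+/+ clone 1 and 0.179 without Kmt2d+/+ clone 3.

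Of 10 cardiac transcription factors 5 passed the filter, and 0 were called in any comparison by edgeR, with at most 1 at an unadjusted p under 0.05 in each (3.67% to 24.7% of all genes) and 0 by limma-voom. DESeq2 called Tbx20 for genotype at day 7 and for day in Kmt2d-/- clones, beside 10.4% and 6.46% of all genes. Tbx20 had 14.7 and 14.3 CPM in Kmt2d-/- clones at day 7, against 37.4, 92.1 and 39.0 CPM in Kmt2d+/+ clones.

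Markers of adipocytes (4 of 6 past the filter), endothelium (3 of 5), immune cells (1 of 5) and neural cells (3 of 5) had 0 calls in every comparison by edgeR. At an unadjusted p under 0.05 the most in a comparison were 2 adipocyte, 2 endothelial, 1 immune and 0 neural genes, beside 3.67% to 24.7% of all genes in the 5 comparisons. DESeq2 called 1 adipocyte gene in each genotype comparison (Fabp4 at day 7, Lpl at day 0) and the immune gene Cd74 in both. These DESeq2 calls stand beside 10.4% of all genes at day 7 and 10.6% at day 0. Cd74 was also called by limma-voom at day 7, beside 3.45%. Neither tool called an endothelial or neural marker. Cd74 had 0.0962 and 1.25 CPM in Kmt2d-/- clones at day 7, against 3.49, 5.91 and 9.27 CPM in Kmt2d+/+ clones.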
